A study of Mus musculus with 10 samples.

Results

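The PGC-1 coactivators and the transcription factors that they work through were followed in interscapular brown fat (iBAT) of mice that had lost Crls1, the gene for cardiolipin synthase, in their fat cells. The 10 genes were picked by symbol from the 15075 genes of the deposited table, with earlier results of these data known. They are the coactivators Ppargc1a, Ppargc1b and Pprc1, the estrogen-related receptors Esrra, Esrrb and Esrrg, the nuclear respiratory factors Nrf1 and Gabpa, the zinc finger factor Yy1 and the corepressor Nrip1. Polyadenylated RNA was sequenced from the iBAT of 5 Control and 5 AdCKO mice, 1 library a mouse, all on a C57BL/6 background, 20 weeks old and housed at room temperature. Both groups were homozygous for a floxed Crls1 allele with loxP sites around exon 4. AdCKO mice also had the Adipoq-Cre transgene, whose promoter drives Cre in adipocytes, so that other cells of a dissected depot keep the gene. The labels call the 2 groups WT and KO, and Control mice had no Cre.

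PGC-1 proteins do not bind DNA themselves. They dock on nuclear receptors and other factors and recruit the machinery that opens chromatin and starts transcription. PGC-1α (Ppargc1a) is best known in brown fat, where cold and β-adrenergic signalling through cAMP induce it and where it coactivates Ucp1 and mitochondrial genes. The estrogen-related receptors act without a hormone and use PGC-1 proteins in the place of a ligand at genes of fatty acid oxidation, the tricarboxylic acid cycle and the respiratory chain, while NRF1 and GABP serve respiratory chain subunits and the factors that copy and read mitochondrial DNA.

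Ppargc1a (NM_008904) spans 51845488 to 51945160 of chromosome 5 (minus strand, build mm9). Its promoter is shown because this gene had the largest log2 fold change of the 10 and because one of the searched motifs, the cAMP response element TGACGTCA, was found in it. The annotation of the same build also starts protein-coding Ppargc1a transcripts 13804 bases further upstream, and the window before that start is shown for comparison. Each window holds the 250 bases before a start, read 5′ to 3′ on the minus strand, at chr5:51945161-51945410 for the start used by the deposited transcript and at chr5:51958965-51959214 for the upstream start, with motif matches in capitals.
Ppargc1a, start of the deposited transcript: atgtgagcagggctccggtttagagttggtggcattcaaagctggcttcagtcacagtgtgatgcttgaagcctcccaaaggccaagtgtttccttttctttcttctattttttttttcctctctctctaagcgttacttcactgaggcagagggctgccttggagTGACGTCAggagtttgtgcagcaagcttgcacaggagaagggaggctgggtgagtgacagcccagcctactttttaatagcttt
Ppargc1a, upstream start: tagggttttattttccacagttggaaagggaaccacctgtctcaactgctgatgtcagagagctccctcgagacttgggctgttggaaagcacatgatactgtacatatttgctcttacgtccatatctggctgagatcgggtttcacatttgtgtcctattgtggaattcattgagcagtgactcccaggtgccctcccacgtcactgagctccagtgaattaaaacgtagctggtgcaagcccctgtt
The cAMP response element stood 84 bases before the deposited start, and no searched motif was found in the upstream window. Neither window held an annotated exon. Of the windows before all 15075 deposited transcripts, 2.5% held this element. The GC content was 48.8% in the first window, against a median of 59.2% over all windows, and it held 3 CpG dinucleotides against a median of 14. Searched on both strands in the same way, AANATGGCG (YY1) was found before Gabpa and in 1.84% of all windows, and TGATGCAA (the composite site of ATF4 and CHOP) before Esrra and in 0.478%. TNAAGGTCA (the ERR element, 0.723% of all windows), GCGCATGCG (NRF1, 2.53%) and CCGGAAGT (GABP, 5.29%) were found before none of the 10 genes. Annotated exons of Atp5j and Gabpa covered all 250 bases of the Gabpa window, so its match lies in transcribed sequence. The Yy1 window was also exon over all 250 bases, that of Esrrg over 109 and that of Esrra over 5. A match of letters is not a site in use, and reads in the deposited values do not separate the 2 starts.

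The values are normalized reads per kb of counted exon, so levels of different genes can be set side by side. Library totals of normalized reads were 7615403 to 8171138 in Control and 5419800 to 5843024 in AdCKO. Depth before normalization is unknown. Crls1 checked the labels: it averaged 1060.2 ± 191 in Control and 217 ± 26.4 in AdCKO mice (SD of 5), and the log2 fold change was -2.27 (adjusted p from limma 3.53e-08). The tissue was checked with Ucp1, the uncoupling protein that defines brown fat, which was 24203 to 46570 in Control libraries and 7895 to 18828 in AdCKO libraries. AdCKO replicates 1, 2 and 4 stood apart in the summed level of 15 skeletal muscle markers, at 10073, 37007 and 14371, where Control libraries held 591 to 636 and AdCKO replicates 3 and 5 held 429 and 469. In replicates 1, 2 and 4 all 15 markers lay above every Control library. Replicates 3 and 5 were not free of this: Acta1 and Mb lay above every Control library in both, Myh4 also in replicate 3, while 8 of the 15 lay below every Control library. Myl1 made up 59.9% of the Control sum, and without it the sums were 291 and 309.6 in replicates 3 and 5 against 199 to 274 in Control. All 10 macrophage markers were higher in AdCKO iBAT, with a sum of 532 to 1633 in Control and of 6641 to 9011 in AdCKO. Itgam and Fcgr1 among them averaged under 10 in Control and were tested only because of their AdCKO means. Of 8 adipocyte markers, 5 were lower, 1 was higher (Retn, 1.42) and 2 were not called (Lep at 1.70 and Fabp4 at -0.44), with 2 higher and 2 lower under the same total in every library. Quantile normalization gave 1 higher and 1 lower, with a median log2 fold change of 0.19 against -0.09 over all tested genes. The sum of the adipocyte markers, 78.1% of it Fabp4 in Control, was 174708 to 210241 in Control and 121454 to 141800 in AdCKO. That of 5 endothelial markers was 1303 to 1639 and 1348 to 1833. No marker of these lists was at 0. Since these are bulk samples, fewer cells of a type and less RNA per cell cannot be told apart.

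Of the 10 genes, 9 averaged 10 normalized reads per kb or more in a group and were tested. Ppargc1a, Pprc1 and Nrf1 were higher in AdCKO iBAT, Esrrg was lower, and 5 were not called at an adjusted p under 0.01 (limma on log2(value + 1), Benjamini-Hochberg over 11244 genes). This background was high: 25.6% of all tested genes were called higher and 28.0% lower, and the members' 3 and 1 of 9 are not read as particular to them. The median log2 fold change was 0.14 over the 9 genes and -0.01 over all tested genes. In 4 of the 9 the groups did not overlap, as in 50.9% of all tested genes. The split of calls rested on the normalization. When every library was scaled to the same total, the median of all genes moved to 0.46, calls over all genes went from 2879 higher and 3152 lower to 6811 and 1098, and limma called 6 of the 9 higher and 0 lower (0 lower also at an unadjusted p under 0.05). This scaling multiplies all genes of a library by the same factor. Relative to that shift, the members therefore had to stay close to their values, and this is no check of them. Ppargc1a was at 2.26, Pprc1 at 1.05, Nrf1 at 0.50 and Esrrg at -0.81 on the log2 scale.

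**Figure D1:**
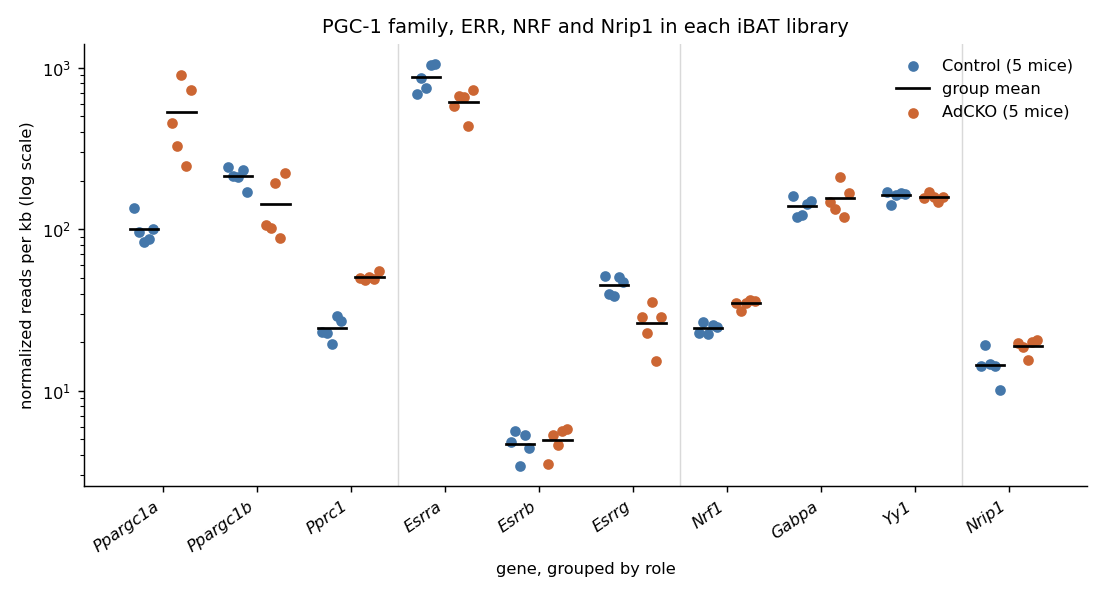
Normalized reads per kb (log axis) of each of the 10 genes in the 5 Control and 5 AdCKO libraries; points are mice and black bars are group means. Ppargc1a moved from a range of 83.9 to 135 up to 247 to 901, while Yy1 stayed between 142 and 169.9 in all 10 libraries.

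Ppargc1a, the cold-inducible coactivator, was at 135, 95.6, 83.9, 87.6 and 101 normalized reads per kb in Control replicates 1 to 5. In AdCKO replicates 1 to 5 it was at 452, 327, 901, 247 and 725. The AdCKO and Control values did not overlap, and the AdCKO libraries differed widely among themselves, with replicate 3 highest and replicate 4 lowest. The mean rose from 101 ± 20.6 to 530.5 ± 275 (SD, n = 5 each), 5.27 times as high, and the log2 fold change was 2.24 (95% CI 1.58 to 2.90, SE 0.30, limma adjusted p = 3.7e-05). The coefficient of variation was 20.4% in Control and 51.9% in AdCKO. By p it ranked 2479 among the 11244 tested genes, behind Pprc1 at 1237. The 2 AdCKO libraries with the lowest summed muscle markers were the 2 with the most Ppargc1a. A fit without replicates 1, 2 and 4, in which all muscle markers were raised, kept only these 2 AdCKO mice. It was added after seeing the data, and its log2 fold change was 3.01 (limma adjusted p = 7.31e-07).

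Ppargc1b encodes PGC-1β, a coactivator of the same family that serves ERRs and is less sensitive to cold than PGC-1α. It spans 61457790 to 61560085 of chromosome 18 (minus strand). Its levels were 243, 215, 212, 232 and 169 in Control and 106, 101, 192, 88.5 and 223 in AdCKO libraries. AdCKO replicates 3 and 5 fell within the Control range, and the other three lay below it. The mean was 214 ± 28.3 in Control and 142 ± 61.0 in AdCKO, and the log2 fold change of -0.68 (SE 0.23, 95% CI -1.19 to -0.17) was not called (limma adjusted p = 0.0228). The 3 low libraries were those with all 15 skeletal muscle markers raised, and without them the value was -0.04 (adjusted p = 0.836). Leaving out AdCKO replicate 3 or 5 alone took it past the threshold, at -0.81 and -0.86 (adjusted p = 0.00959 and 0.00244). Array quality weights also called it (-0.79, limma adjusted p = 0.00562). The same total in every library moved it to -0.20 (adjusted p = 0.448), against the shift of 0.46 for all genes. The call thus rested on which AdCKO mice were included and on the processing.

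**Figure D2:**
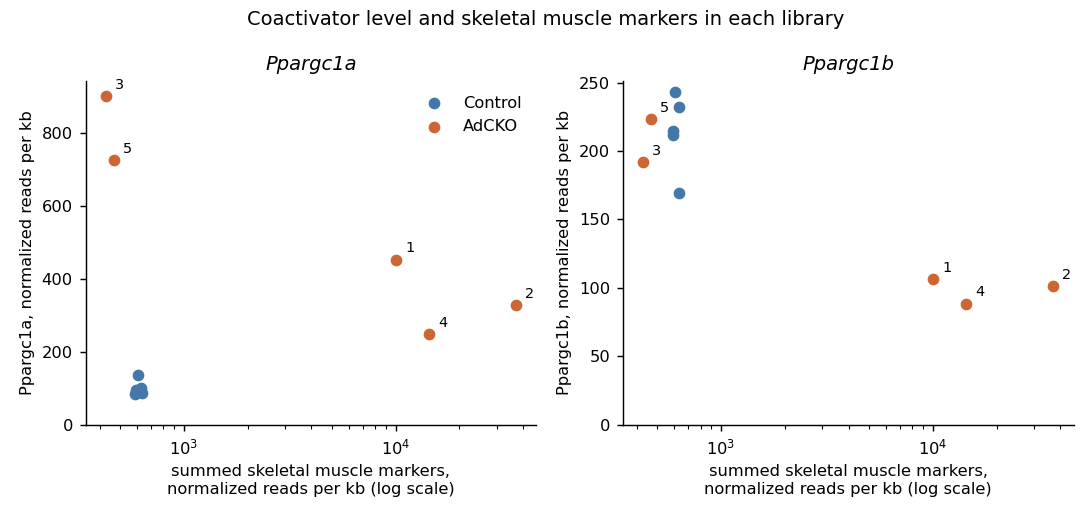
Ppargc1a (left) and Ppargc1b (right) in normalized reads per kb against the summed level of 15 skeletal muscle markers (log axis), 1 point a library, with AdCKO replicates numbered. AdCKO replicates 3 and 5, at marker sums of 429 and 469, have the highest Ppargc1a (901 and 725) and Ppargc1b within the Control range (192 and 223).

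Pprc1 encodes PRC, the most distant family member, which is known as a growth-regulated coactivator of NRF1 in many cell types. The gene spans 46131029 to 46147399 of chromosome 19 (plus strand). Control libraries held 23.2, 22.7, 19.4, 29.0 and 27.2 normalized reads per kb, and AdCKO libraries held 49.8, 48.7, 50.7, 49.5 and 55.3. The groups were far apart and the AdCKO libraries close to each other, with a coefficient of variation of 5.19% against the 51.9% of Ppargc1a. Pprc1 rose from 24.3 ± 3.83 to 50.8 ± 2.63, 2.09 times the Control mean, and the log2 fold change was 1.05 (95% CI 0.82 to 1.27, SE 0.10, limma adjusted p = 2.48e-06). This gene was called higher in all 21 alternative settings, between 0.83 and 1.51. Without AdCKO replicates 1, 2 and 4 the value was 1.11.

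Ratios of 2 genes within a library do not depend on how libraries are scaled to each other. Ppargc1a stood at 0.557, 0.445, 0.397, 0.377 and 0.597 times the level of Ppargc1b in the Control libraries. The ratio was 4.25, 3.23, 4.69, 2.80 and 3.25 in the AdCKO libraries. Ppargc1b was thus the more abundant coactivator in every Control mouse and Ppargc1a in every AdCKO mouse, and no library of either group crossed that line. The ratio was 7.66 times as high in AdCKO iBAT, a difference of 2.94 on the log2 scale (two-sided exact permutation p = 0.0079, which is the smallest for 5 mice against 5, and 0.0238 adjusted over 6 pairs). Against Nrip1, a corepressor of PGC-1 action, Ppargc1a was 5.01 to 10.01 times as high in Control and 12.4 to 58.0 times in AdCKO, a log2 difference of 1.85 (exact permutation test, adjusted p = 0.0238). Against Pprc1 it was 3.02 to 5.84 and 5.00 to 17.8 times as high, a log2 difference of 1.18 with overlapping groups (exact permutation test, adjusted p = 0.0317). This last difference lost its call when any of Control replicates 2 to 5 was left out. The other three pairs were not called in exact permutation tests: log2(Ppargc1b/Esrra) differed by -0.16 (adjusted p = 0.564), log2(Esrra/Esrrg) by 0.32 (adjusted p = 0.162) and log2(Nrf1/Gabpa) by 0.37 (adjusted p = 0.155).

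**Figure D3:**
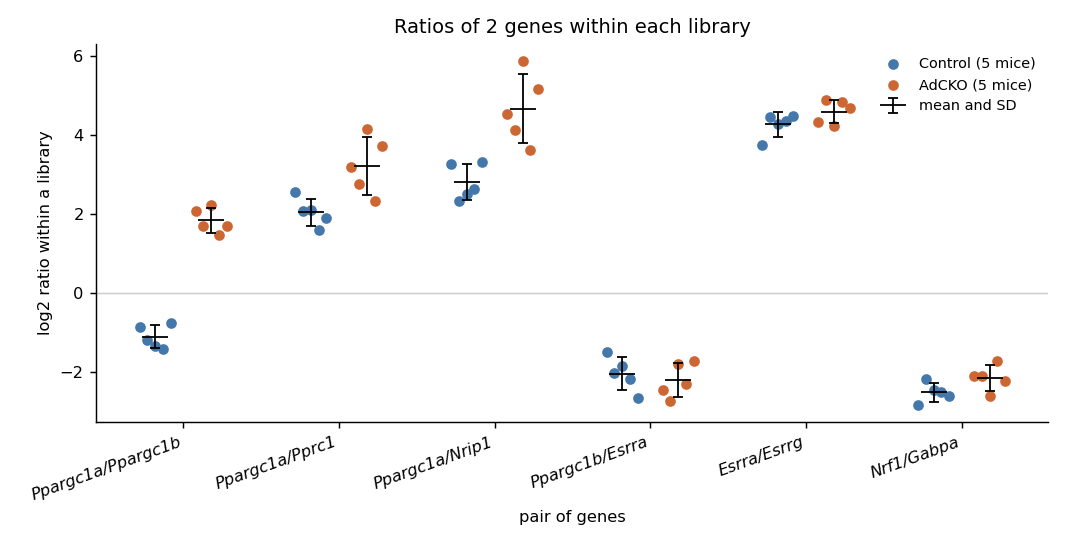
Log2 ratio of 2 genes within each library for the 6 pairs compared; points are mice, and bars give the mean and SD of 5. The log2 ratio of Ppargc1a to Ppargc1b lies below 0 in every Control and above 0 in every AdCKO library.

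Of the estrogen-related receptors Esrrg was lower, Esrra was not called and Esrrb was too low to be tested. Esrra encodes ERRα, the main DNA-binding partner of PGC-1α at mitochondrial genes, and was the most abundant of the 10 genes in both groups. On chromosome 19 it spans 6985467 to 6996298 (minus strand). Control libraries held 685, 868, 751, 1040.2 and 1053 normalized reads per kb and AdCKO libraries held 577, 668, 662, 435 and 725. The groups overlapped only through AdCKO replicate 5, which lay above Control replicate 1. The mean was 879 ± 166 in Control and 614 ± 113 in AdCKO, and the log2 fold change was -0.52 (95% CI -0.86 to -0.18, SE 0.15), just outside the threshold (limma adjusted p = 0.0105). Leaving out Control replicate 1 or 3 or AdCKO replicate 5 brought it inside (adjusted p = 0.00526, 0.00997 and 0.00706). The same total in every library moved it to -0.04, and without AdCKO replicates 1, 2 and 4 it was -0.32 (adjusted p = 0.13). Esrra shares 73 annotated exon bases with Trmt112 on the other strand, whose level was 101 ± 9.18 in Control and 124 ± 11.2 in AdCKO. Whether reads were counted by strand is not given in the sources used here, so reads from those bases cannot be told apart.

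Esrrg encodes ERRγ, a receptor of highly oxidative tissues, and spans 189432885 to 190038763 of chromosome 1 (plus strand). Its levels were 51.5, 39.6, 38.6, 50.6 and 47.0 in Control and 28.7, 22.7, 35.6, 15.4 and 28.5 in AdCKO libraries. Every AdCKO value lay below every Control value, with AdCKO replicate 3 nearest to the Control range and replicate 4 farthest. Esrrg fell from 45.5 ± 6.07 to 26.2 ± 7.59, to 57.6% of Control, and the log2 fold change was -0.81 (95% CI -1.22 to -0.41, SE 0.18, limma adjusted p = 0.00198). Without AdCKO replicates 1, 2 and 4 the value was -0.49 and no longer called (adjusted p = 0.0185), and under the same total in every library it was -0.35 (adjusted p = 0.117). Esrrb encodes ERRβ, which is known from stem cells and the inner ear, and spans 87702067 to 87862578 of chromosome 12 (plus strand). It was the lowest of the 10 genes, at 3.43 to 5.60 in Control and 3.51 to 5.83 in AdCKO libraries. The groups overlapped over nearly their whole range, and a two-sided exact permutation test gave p = 0.627.

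**Figure D4:**
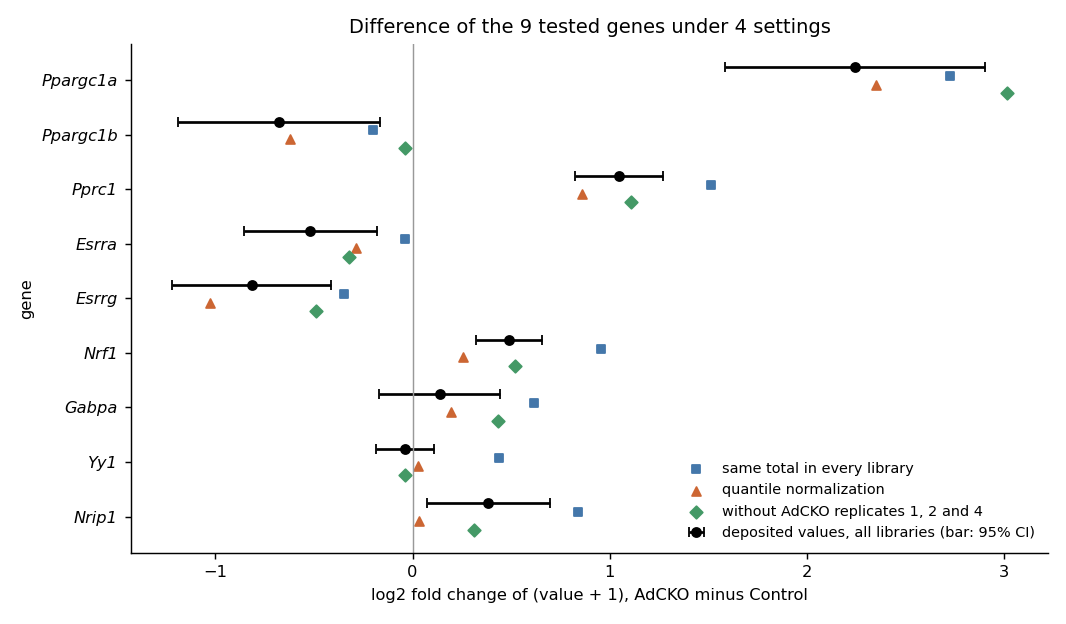
Log2 fold change of the 9 tested genes, AdCKO minus Control; black points are the deposited values with 95% confidence intervals, and the other symbols are the same total in every library, quantile normalization, and the data without AdCKO replicates 1, 2 and 4. Ppargc1a (2.24) and Pprc1 (1.05) are above 0 under all 4 settings, and the interval of Yy1 (-0.18 to 0.11) includes 0.

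Among the nuclear respiratory factors only Nrf1 was called on the deposited values, and this call was lost under quantile normalization (0.25, adjusted p = 0.0195). Nrf1 here is nuclear respiratory factor 1, a DNA-binding activator of cytochrome c and other respiratory genes, and not the stress factor Nfe2l1 that shares its name. The gene spans 29997988 to 30103458 of chromosome 6 (plus strand). Levels were 22.9, 26.6, 22.5, 25.6 and 24.8 in Control and 34.9, 31.3, 34.8, 36.5 and 36.2 in AdCKO libraries. All AdCKO values lay above all Control values, with little spread within either group. Nrf1 rose from 24.5 ± 1.76 to 34.7 ± 2.06, to 142% of Control, and its log2 fold change was 0.49 (95% CI 0.32 to 0.66, SE 0.08, limma adjusted p = 0.000122). The value was 0.52 without AdCKO replicates 1, 2 and 4 (adjusted p = 0.0034).

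Gabpa encodes the DNA-binding subunit of GABP, also called NRF2, an ETS factor. On chromosome 16 it spans 84835369 to 84864023 (plus strand). Control libraries held 161, 119.9, 123, 144 and 150.1 and AdCKO libraries 148, 133, 211, 119 and 167 normalized reads per kb. AdCKO replicates 3 and 5 lay above every Control library and the other three within or just below the Control range. The log2 fold change was 0.14 (95% CI -0.17 to 0.45, limma adjusted p = 0.414). Under the same total in every library it was 0.62 and called higher (adjusted p = 0.00238), against the shift of 0.46 for all genes. Its exons share 298 annotated bases with Atp5j on the opposite strand, a subunit of ATP synthase whose level was 1883 ± 131 in Control and 1065 ± 51.7 in AdCKO. Reads from these bases cannot be assigned to one of the 2 genes if strand was not used, and the part of Atp5j in the values of Gabpa was not tested.

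Yy1, a zinc finger factor that can activate or repress and that binds PGC-1α at mitochondrial genes, spans 110031521 to 110054842 of chromosome 12 (plus strand). It was the steadiest of the 10 genes, at 169.9, 142, 163, 169 and 166 in Control and 156, 169, 158, 147 and 158 in AdCKO libraries. All AdCKO values lay within the Control range. The log2 fold change was -0.04 and not called (95% CI -0.18 to 0.11, limma adjusted p = 0.633). The same total in every library turned the direction, to 0.44 (adjusted p = 0.000172), close to the shift of 0.46 for all genes.

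Nrip1 encodes RIP140, a corepressor that opposes PGC-1α and holds back Ucp1 and mitochondrial genes in fat. The gene spans 76291107 to 76373294 of chromosome 16 (minus strand). Levels were 14.2, 19.1, 14.7, 14.2 and 10.1 in Control and 19.8, 18.7, 15.5, 20.0 and 20.5 in AdCKO libraries. The groups overlapped through Control replicate 2, the highest of its group. The mean was 14.5 ± 3.19 in Control and 18.9 ± 2.00 in AdCKO, and the log2 fold change of 0.38 (SE 0.14, 95% CI 0.07 to 0.70) was not called (limma adjusted p = 0.0319). Without Control replicate 2 it was 0.48 and called (adjusted p = 0.00704), whereas quantile normalization moved it to 0.03 and the same total in every library to 0.84, where it was called (adjusted p = 0.000121).

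In Control iBAT the levels per kb descended in the order Esrra, Ppargc1b, Yy1, Gabpa, Ppargc1a, Esrrg, Nrf1, Pprc1, Nrip1 and Esrrb. Between neighbours in this order the ranges of Ppargc1b and Yy1, Yy1 and Gabpa, Gabpa and Ppargc1a, and Nrf1 and Pprc1 overlapped, and Nrf1 was above Pprc1 in only 2 of 5 Control mice. In AdCKO iBAT Ppargc1a moved by its mean from place 5 to place 2, and Ppargc1b from place 2 to place 5. The AdCKO range of Ppargc1b overlapped that of Gabpa, which was the higher in 4 of 5 mice. Ppargc1a then overlapped the range of Esrra, exceeding it in AdCKO replicate 3, although Esrra was higher in 4 of 5 mice. Pprc1 rose from place 8 to place 6, past Nrf1 and Esrrg, and the order of Yy1 and Gabpa was not the same in all mice. The AdCKO libraries kept no single order among themselves. Replicates 3 and 5 were the 2 highest of their group for 4 of the 10 genes, Ppargc1a, Ppargc1b, Pprc1 and Gabpa, and replicate 4 was the lowest for 6 of the 10 but the highest for Nrf1.

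The genes that act on PGC-1 coactivators, bind them or are known to be their targets were described by lists. Of 23 upstream regulators, 4 were higher, 4 were lower and 15 were not called, with a median log2 fold change of 0.05. Both counts lie below the shares over all tested genes (25.6% higher and 28.0% lower). Among those higher, Rbl1 was tested only because of its AdCKO mean. Tfeb, a lysosomal transcription factor that induces Ppargc1a, rose by 0.51 (limma adjusted p = 6.9e-05), and Mybbp1a, which binds and represses PGC-1α, rose by 0.45 (adjusted p = 0.00014). Hdac3, a deacetylase that activates PGC-1α in brown fat, fell by 0.52 (adjusted p = 7.66e-06) but stood at -0.05 under the same total in every library (adjusted p = 0.454). Mapk14, the p38 kinase that activates PGC-1α downstream of β-adrenergic signalling, fell by 0.39 (adjusted p = 0.00305) but was at 0.087 with that scaling, which gave 16 higher and 0 lower calls in this list (0 lower also at limma's unadjusted p under 0.05), against 60.6% higher and 9.77% lower over all tested genes. Creb1, the factor that binds the cAMP response element, was not called (0.28, adjusted p = 0.0146).

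Of 22 other binding partners, 2 were higher, 7 were lower and 13 were not called, with a median of -0.13. The lower calls lie near the 28.0% over all tested genes, and the higher calls below the 25.6%. Prdm16, which drives brown adipocyte identity together with PGC-1α, went down from 61.3 ± 6.37 to 24.7 ± 5.10 normalized reads per kb (log2 fold change -1.29, limma adjusted p = 2.61e-06). Thrb, a thyroid hormone receptor, did so from 75.3 ± 12.9 to 31.0 ± 3.30 (log2 fold change -1.25, adjusted p = 2.17e-06). Mef2c, a factor of muscle and other lineages, rose by 1.08 (adjusted p = 0.000789), and Gabpb1, the partner subunit of Gabpa, by 0.47 (adjusted p = 0.000507). Under the same total in every library this list had 12 higher and 2 lower calls, against the shift of 0.46 and the 60.6% higher and 9.77% lower calls of all tested genes.

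Known target genes were mostly lower on the deposited values, in the same libraries in which Ppargc1a was higher, but for ERR targets the share of lower calls came to that of all genes under quantile normalization. Of 16 known ERR targets, 12 were lower, 0 were higher and 4 were not called, with a median of -0.75. With limma's unadjusted p under 0.05, 1 was higher: Ckmt2, the mitochondrial creatine kinase of muscle, was named after its values were seen and was at 5.49 to 6.54 in Control libraries and at 4.13 to 282 in AdCKO libraries (adjusted p = 0.0291). The lower targets included Etfdh, which passes electrons from fatty acid oxidation to ubiquinone, at -1.52 (adjusted p = 1.79e-07) and Acadm, the medium-chain acyl-CoA dehydrogenase, at -1.35 (adjusted p = 9.54e-07). Atp5b, the catalytic subunit of ATP synthase and the most abundant of the list, fell from 36690.2 ± 1836 to 15640.1 ± 2512 (log2 fold change -1.24, limma adjusted p = 3.08e-06), except that quantile normalization put it at 0.000274. Of 25 tested NRF1 or GABP targets, 21 were lower, 1 was higher and 3 were not called, with a median of -0.61. Tfb2m, a factor of mitochondrial transcription, and Sdhb, a subunit of complex II, both fell by 1.28 (adjusted p = 9.03e-08 and 8.78e-07), and Cox6a1, a subunit of complex IV and the most abundant of this list, fell by 1.47 (adjusted p = 2.17e-06). Alas1, the first enzyme of heme synthesis, rose by 0.42 (adjusted p = 0.00872), a call it kept in 9 of 21 alternatives. Cycs, cytochrome c, is in both lists and fell by 0.61.

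Under the same total in every library the ERR targets had 1 higher and 8 lower calls and the NRF1 or GABP targets 3 higher and 9 lower, against 60.6% higher and 9.77% lower over all tested genes. Under quantile normalization these splits were 1 and 5, and 2 and 13, against 22.0% higher and 31.2% lower over all tested genes, and the median of the ERR targets differed from that of all genes by -0.0058. Without AdCKO replicates 1, 2 and 4 the splits were 0 higher and 10 lower, and 0 higher and 13 lower (18.8% higher and 19.7% lower over all tested genes), with 1 higher in each list at limma's unadjusted p under 0.05. Of 6 thermogenic genes that PGC-1α is known to coactivate, 4 were lower, 0 were higher in the limma test (1, Dio2, at an unadjusted p under 0.05) and 2 were not called, with a median of -1.44. Otop1, a proton channel of brown fat, fell by 1.78 (limma adjusted p = 2.92e-07), Cidea, a lipid droplet protein, by 1.63 (adjusted p = 2.57e-05) and Ucp1, the most abundant, by 1.42 (adjusted p = 0.000274), a call lost under quantile normalization (-0.40, adjusted p = 0.209). Dio2, which activates thyroid hormone, was at 162 ± 80.5 in Control and 285 ± 69.9 in AdCKO iBAT and was not called (adjusted p = 0.0145). The list had 2 higher and 4 lower calls under the same total. Beside these counts stand 28.0% lower calls over all tested genes. On the deposited values 5 of 8 adipocyte markers were lower (1 of 8 under quantile normalization) and Retn was higher. The 10 of 10 macrophage markers were higher. The part of these cell types in the counts was not tested.

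**Figure D5:**
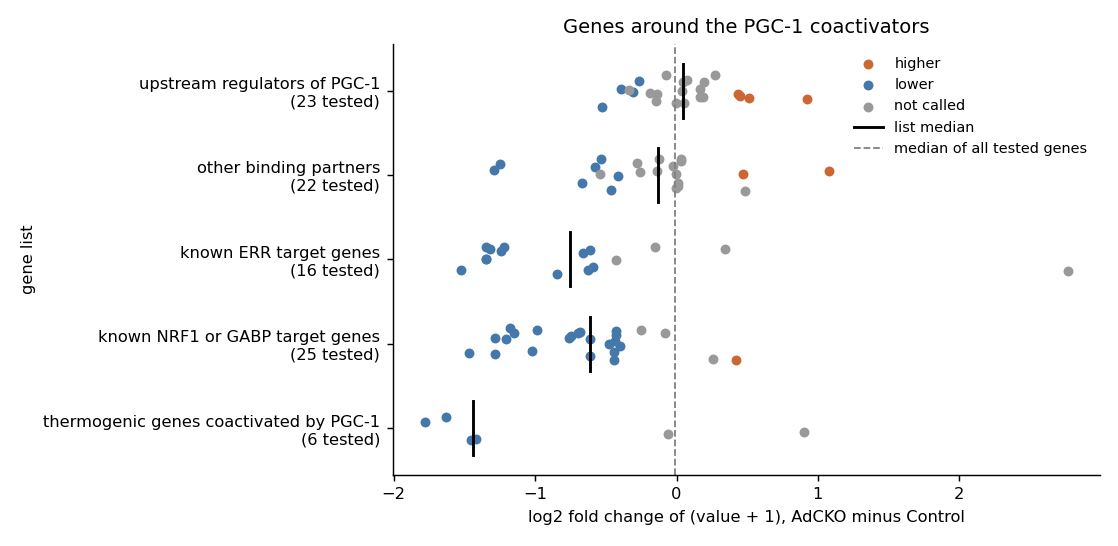
Log2 fold change, AdCKO minus Control, of each tested gene in 5 lists around the PGC-1 coactivators, coloured by call; black lines are list medians and the dashed line is the median of all tested genes (-0.01). The medians are 0.05 for upstream regulators, -0.13 for other partners, -0.75 for ERR targets, -0.61 for NRF1 or GABP targets and -1.44 for thermogenic genes.

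Genes with a profile like that of Ppargc1a were sought by the root mean square difference of log2(value + 1), centred on the Control mean, over the 10 libraries and 11235 other tested genes. The nearest were Sat1 (0.38), a polyamine-catabolizing acetyltransferase, Fndc5 (0.41), the precursor of the secreted peptide irisin, Mal (0.42), Chka (0.43), the choline kinase of phosphatidylcholine synthesis, and Aldh1b1 (0.44), a mitochondrial aldehyde dehydrogenase. Mal and Aldh1b1 averaged under 10 in Control and were among the tested genes only because of their AdCKO means. For both, a rise was thus favoured by how they entered the comparison. Sat1 went from 242 ± 18.7 to 1026 ± 236 normalized reads per kb. Fndc5 went from 16.5 ± 1.72 to 74.4 ± 26.2. Its highest AdCKO library was replicate 3 and its lowest replicate 4, as for Ppargc1a, a likeness that the choice by profile favours. The nearest to Esrra were Id1 (0.13), Sh2b1 (0.13), Tbkbp1 (0.14), Traf4 (0.14) and Nr2f6 (0.15), the last an orphan nuclear receptor. Their log2 fold changes lay between -0.63 for Traf4 and -0.39 for Id1, and those of Id1 and Tbkbp1 turned to 0.090 and 0.082 under the same total in every library.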

How the data were processed

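RNA from the iBAT of 5 Control and 5 AdCKO mice was analysed, grouped by the sample labels. The authors mapped reads to mm9 with STAR, made tag directories with HOMER, counted reads on exons by iRNA-seq and used DESeq2 for normalization; tool versions are not given in the sources used here. What the authors deposited is a signal, the normalized reads divided by the kb of exon counted, for 1 RefSeq transcript a gene. They are not counts, whole reads could not be recovered, none is 0, and depth is unknown, so that no counting interval was computed. The deposited table also holds the authors' fold changes, adjusted p-values and group means, and 2 further files hold lists of genes called in one direction; none of these was used.

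After adding a pseudocount of 1, log2 values were tested, on which scale changes of low genes come out too small, with limma 3.58.1 in R 4.3.3 (lmFit, eBayes with trend, two-sided, Benjamini-Hochberg adjustment, threshold 0.01) over the 11244 genes that averaged 10 or more in either group. The test was first run on simulated data with independent noise and a small part of the genes changed. These data differ from that setting, so the run is no check of the calls here. The text names all 10 members, the 2 called genes of smallest p in each direction of a list, the most abundant of each list of targets, the 5 nearest profiles of Ppargc1a and Esrra, and Crls1; genes outside this rule were chosen after their values were seen. Of the listed genes, Sco2 was not analysed here. The members and lists were chosen with earlier results of these data known. Promoter windows were read from the NCBIM37 (mm9) genome and annotated with GENCODE vM1; the window before each deposited transcript was searched. Over the 32851 promoters of the RefSeq table (build GRCm38.p6) the shares with a motif were 1.79% for TGACGTCA and 0.895% for TGATGCAA. No promoter of Ppargc1b is shown. Python 3.11.15 with matplotlib 3.10.9 made the figures.

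Alternatives were pseudocounts of 0.1 and 10, no filter, a filter at a mean of 1 across the libraries, the same total in every library, quantile normalization, limma without trend or with array quality weights, a replicate block, each library left out, and a threshold of 0.05. Leaving out AdCKO replicates 1, 2 and 4 together was added after seeing the data.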

Additional observations from a re-analysis of the deposited data

Results flagged for a closer look

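Yy1 in Control replicate 2 was at 142 normalized reads per kb, the lowest of its group, and its gap to the next library was 0.743 of the range of the group, above the critical value of 0.71 for 5 samples (Dixon's test at the 95% level). In all, 34 groups of 5 values were looked at in this way, and chance gives such a gap in about 1 of 20 groups. Without this library the log2 fold change of Yy1 was -0.08 and was not called.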

How the results depend on the processing

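Ppargc1a, Pprc1 and Crls1 kept direction and call in all 21 settings. Not all of these could alter the result. The threshold of 0.05 could not remove a call, and other filters, no trend or the replicate block left the log2 fold change as it was. Ppargc1a ran from 2.01 to 3.01 on the log2 scale. Under the same total in every library, members were 6 higher and 0 lower, upstream regulators 16 and 0, other partners 12 and 2, ERR targets 1 higher, NRF1 or GABP targets 3 and 9, and thermogenic genes 2 higher. The direction turned for Yy1 (0.44), Id1 (0.090), Mapk14 (0.087) and Tbkbp1 (0.082). Quantile normalization gave 1 upstream regulator lower, 1 and 5 ERR targets, 2 and 13 NRF1 or GABP targets and 1 thermogenic gene higher, and turned Yy1 (0.028) and Atp5b (0.000274). Array quality weights gave 3 members lower, 1 ERR target higher and 2 NRF1 or GABP targets higher. A threshold of 0.05 gave 3 members lower, 7 upstream regulators higher, 1 ERR target higher, 2 NRF1 or GABP targets higher and 1 thermogenic gene higher. No filter and limma without trend each gave 0 NRF1 or GABP targets higher. The cause of these moves was not tested. Where limma called 0 of a list higher or lower, 0 to 2 of its genes had an unadjusted p under 0.05 in that direction.

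Without AdCKO replicates 1, 2 and 4, members lower were 0, upstream regulators lower 2, and NRF1 or GABP targets 0 higher and 13 lower; fewer samples entered this fit. The log2 ratios were then 3.06 for Ppargc1a/Ppargc1b, 2.69 for Ppargc1a/Nrip1, 1.89 for Ppargc1a/Pprc1 and 0.28 for Ppargc1b/Esrra, the last with its direction turned; 2 mice against 5 are too few for the adjusted threshold. With each library left out in turn, members lower ran from 1 to 3 (with Control replicate 1 or 3, or AdCKO replicate 3 or 5, left out), upstream regulators lower from 2 to 5, ERR targets higher from 0 to 1, NRF1 or GABP targets higher from 0 to 1, and thermogenic genes higher from 0 to 1. The Ppargc1a/Pprc1 difference ran from 0.95 to 1.40 and that of Nrf1/Gabpa from 0.26 to 0.49.

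Same-numbered libraries did not deviate together (r from -0.27 to 0.098, 0 of 5 libraries nearest to their own number). The labels give no pairing of the mice, and a comparison of 5 numbers cannot exclude one. With the replicate block, 2 upstream regulators were lower and 0 NRF1 or GABP targets higher. Taken as same-numbered differences, the ratios have the same sizes by arithmetic, 2.94 for Ppargc1a/Ppargc1b, 1.18 for Ppargc1a/Pprc1 and 1.85 for Ppargc1a/Nrip1. This is therefore no check of them, and the smallest possible sign-flip p of 0.0625 cannot pass. Unknown depth and 5 mice a group limit what small differences, such as those of Gabpa and Nrip1, can show.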

Other observations

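Among the upstream regulators and binding partners of PGC-1 coactivators outside the naming rule, these were chosen after their values were seen. Thra, the more abundant thyroid hormone receptor gene of iBAT, averaged 248 ± 31.3 in Control and 155 ± 12.3 in AdCKO mice (SD of 5; log2 fold change -0.67, limma adjusted p = 3.8e-05). Pparg, the master factor of fat cells, was at 1197 ± 153 and 870.0 ± 149 (-0.47, adjusted p = 0.00536) with overlapping groups. Foxo1, a factor held in check by insulin that PGC-1α coactivates in liver, was at 148 ± 32.9 and 97.2 ± 5.34 (-0.58, adjusted p = 0.000906), and Lpin1, a phosphatidate phosphatase that also acts as a coactivator, at 1105 ± 159 and 764 ± 131 (-0.53, adjusted p = 0.00241). Under the same total in every library none of these 4 was called, with Thra at -0.19, Pparg at 0.015, Foxo1 at -0.10 and Lpin1 at -0.053, and limma's unadjusted p was under 0.05 for 1, Thra. Pparg and Lpin1 also lost their calls under quantile normalization, and Pparg, Foxo1 and Lpin1 without AdCKO replicates 1, 2 and 4. The general coactivators Crebbp, Ep300, Med1 and Ncoa1 lay between -0.14 and 0.03 and were not called. Rbl1, from the list of upstream regulators, is the pocket protein p107 that represses Ppargc1a in fat precursors. It was at 5.99 ± 1.23 and 12.2 ± 2.04 (0.92, limma adjusted p = 0.000192). It was not called under quantile normalization (0.36, adjusted p = 0.0446). Rbl1 passed the filter only through its AdCKO mean, so a rise was favoured by how it entered the test.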
